A study of Mus musculus with 12 samples.

Results

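Neurotrophins are secreted growth factors that keep developing neurons alive, and this group of 8 genes holds 2 of them with the receptors and adaptors that carry their signal. The members are Bdnf, Ntf3, Ntrk2, Ntrk3, Ngfr, Sort1, Frs2 and Shc3, taken from the data by gene symbol. They were chosen with earlier results of these data known. They are 8 of the 24452 gene symbols and 25 of the 35840 RefSeq transcripts measured. Total RNA of the somatosensory cortex was sequenced in 12 libraries from male C57BL/6 mice at postnatal day 7, in 4 groups of 3. The groups were wild-type (WT) mice given saline, WT mice given ethanol, p53 KO mice given saline and p53 KO mice given ethanol. Ethanol was injected intraperitoneally at 2.5 g/kg, 2 times on that day, brains were taken 8 h after the last injection, and the controls of both genotypes were injected with saline instead. WT and KO pups came from crosses of p53 heterozygotes, and the germ-line disruption of Trp53 is in every cell of the KO pups. The labels do not tie libraries to litters, so the p-values measure only the spread between these libraries.

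BDNF and NT-3 are made as larger precursors that are cut to the mature form. Mature BDNF binds TrkB (the product of Ntrk2), NT-3 binds TrkC (Ntrk3), and both receptors are tyrosine kinases that recruit adaptors such as FRS2 and ShcC (Shc3) to switch on the MAP kinase and PI3 kinase branches of survival signalling. The precursors bind p75NTR (Ngfr) together with sortilin (Sort1), a pair known for promoting the death of neurons. In the cortex Ntrk2 and Ntrk3 also give truncated receptors without the kinase, and the truncated TrkB is the form typical of astrocytes.

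The point at which the truncated and full-length receptor messages part is printed here because the counts below are given for each form. In the lines that follow, 5′ to 3′, the lower-case bases are the last 30 coding bases that both forms share and the capitals are the bases of one form alone, read from GENCODE mouse transcripts of GRCm38.
Ntrk2 full-length, NM_001025074: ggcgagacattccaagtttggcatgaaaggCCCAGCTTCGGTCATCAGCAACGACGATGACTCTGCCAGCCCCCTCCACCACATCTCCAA
Ntrk2 truncated, NM_008745: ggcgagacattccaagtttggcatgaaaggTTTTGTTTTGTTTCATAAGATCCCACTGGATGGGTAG
Ntrk3 full-length, NM_008746: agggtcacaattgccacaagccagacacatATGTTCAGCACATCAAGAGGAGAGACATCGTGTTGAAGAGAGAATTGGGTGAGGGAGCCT
Ntrk3 truncated, NM_182809: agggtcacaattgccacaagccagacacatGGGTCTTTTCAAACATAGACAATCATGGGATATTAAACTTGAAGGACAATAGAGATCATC
The 2 Ntrk2 forms share 1394 coding bases, after which the truncated form has 37 coding bases of its own, and its message ends its open reading frame there. The 2 Ntrk3 forms share 1585 coding bases, after which the full-length form has 893 and the truncated form 254. The remaining Ntrk2 transcript, NM_001282961, has the same coding sequence as NM_001025074.

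The 8 genes lie on 7 chromosomes in mm10. Ntrk2 (chr13:58806569-59133970, plus strand) and Ntrk3 (chr7:78192114-78577838, minus strand) are the longest, with spans of 327402 and 385725 bases. Bdnf (chr2:109674700-109727043, plus strand) has 12 transcripts from 9 start sites. Ntf3 (chr6:126101412-126166744, minus strand) has 3 transcripts and Sort1 (chr3:108284064-108361519, plus strand) has 2. Ngfr (chr11:95568821-95587698, minus strand), Frs2 (chr10:117070127-117148474, minus strand) and Shc3 (chr13:51431042-51567084, minus strand) have 1 transcript each.

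The values below are estimated counts summed over the transcripts of a gene and scaled to CPM (counts per 1000000 of the library's size, with TMM factors). All 8 members and 14739 gene symbols in all passed the filter on low counts, and 16 of the 25 member transcripts passed among 21715. Library totals ran from 719735 to 17066392 estimated counts, and the shallowest library by far was KO ethanol 12 (library numbers are those of the labels). In that library Ntf3 and Ngfr had no count at all, which allows up to 5.01 CPM for each (3 counts), and Bdnf rested on 2 counts, with an exact Poisson interval (95%) of 0.405 to 12.1 CPM. Such intervals cover counting error only. WT saline 3 and KO ethanol 12 are the libraries whose names open with L, and whether L marks the tissue cut by laser, as part of the study's samples were, or by hole punch, as the rest were, is not given in the sources used here. Trp53 CPM was 3.67 to 26.2 in WT and 11.1 to 28.7 in KO libraries, so the sum over its transcripts did not separate the genotypes and the labels could not be checked with it.

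Markers of tissue next to the somatosensory cortex differed between libraries. Cortical excitatory neuron markers (10 of 10 in the files, 10 of 10 at 1 CPM or more in every library) summed to 849 to 1454 CPM across the 12 libraries. Thalamic markers (6 of 6 in the files) summed to 1582 CPM in WT ethanol 4 and to 47.3 to 151 CPM in the other 11 libraries, and hippocampal markers (6 of 6) to 379 CPM in WT ethanol 4 and 48.5 to 127 CPM elsewhere. Choroid plexus markers (6 of 6) ranged from 1.67 to 5064 CPM, with the top value again in WT ethanol 4. Meningeal fibroblast markers (6 of 6) summed to 1391 CPM in WT saline 1 and 40.1 to 541 CPM elsewhere. Striatal markers (7 of 8) summed to 1119 CPM in WT ethanol 14 and 86.6 to 522 CPM elsewhere. No marker of the 11 lists was at 0 in all libraries. The libraries of 1 group therefore did not hold the same mix of tissue.

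**Figure D1:**
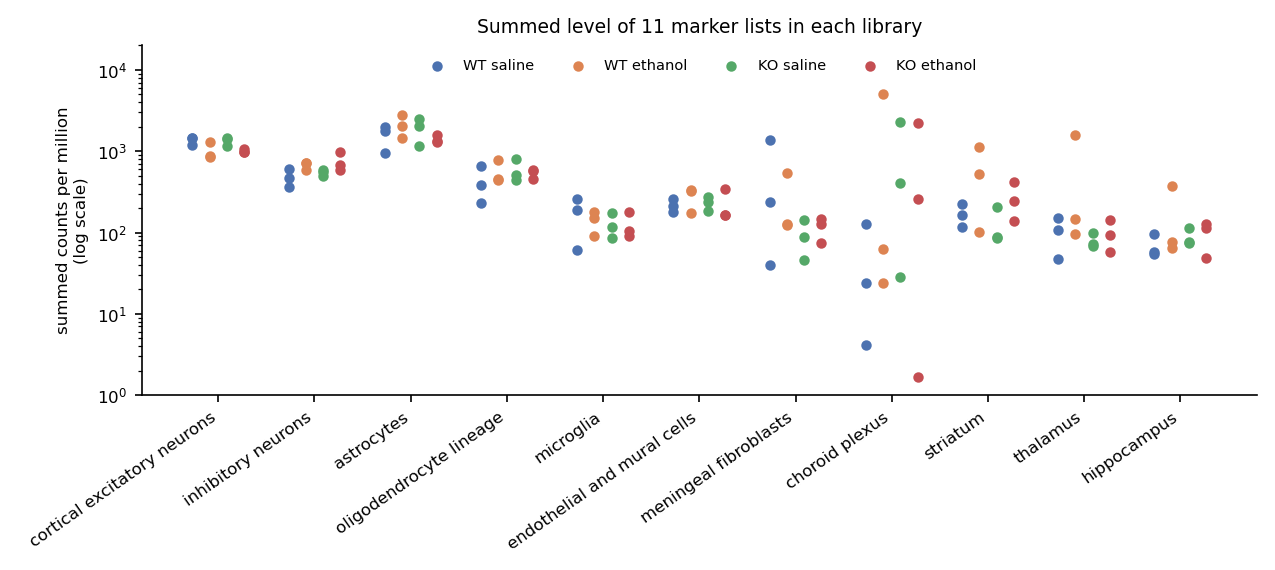
Summed CPM (log scale) of 11 marker lists in each of the 12 libraries, 1 point a library, coloured by group. Cortical excitatory neuron markers lie between 849 and 1454 CPM in all libraries, while the thalamic sum of 1582 CPM in 1 WT ethanol library stands above the other 11 (47.3 to 151 CPM).

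Per length, Ntrk2, Sort1 and Ntrk3 were the most abundant members and Ngfr, which encodes the receptor p75NTR, the least. On the authors' RPKM, summed per gene, the medians over the 12 libraries were 36.7 for Ntrk2, 21.7 for Sort1, 10.8 for Ntrk3, 5.19 for Shc3, 4.69 for Frs2, 2.36 for Ntf3, 2.32 for Bdnf and 0.537 for Ngfr. Ntrk2 was above Sort1 in 12 of 12 libraries, Sort1 above Ntrk3 in 11, Ntrk3 above Shc3 in 10, Ntf3 above Bdnf in 10 and Bdnf above Ngfr in 12. The middle of the order was not separated, since Shc3 exceeded Frs2 in 6 of 12 libraries and Frs2 exceeded Ntf3 in 7. KO ethanol 12 had the highest Bdnf RPKM of the 12 libraries (5.85) on 2 counts. There NM_001285416, a Bdnf transcript, had an RPKM of 0.394 at an estimated count of 0.016. The place of Bdnf in the order is therefore unsure in shallow libraries. Ntf5, which encodes NT-4, another ligand of TrkB, was near the detection limit at 0 to 0.443 CPM.

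**Figure D2:**
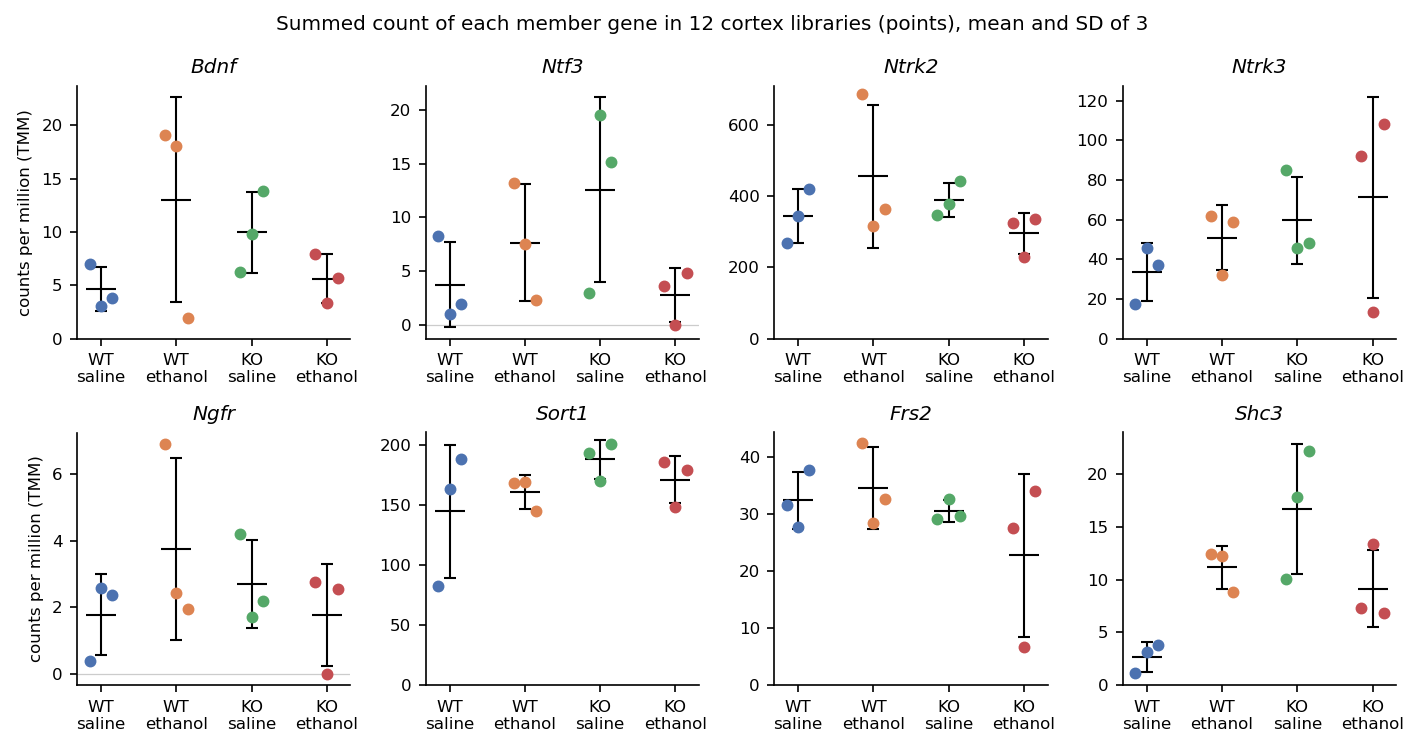
CPM of the 8 member genes in each library (points), with the mean and SD of the 3 libraries of each group (bars). Shc3 in the 3 WT saline libraries (1.10 to 3.79 CPM) lies below the other 9 libraries (6.79 to 22.2 CPM), and Ntrk2 has 1 WT ethanol library at 688 CPM.

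Ethanol against saline in WT mice asks how the neonatal cortex responded to the exposure when p53 was present. All 8 members had fitted differences above 0, and Shc3 and Bdnf were the 2 of 8 with an unadjusted p under 0.05. Over all 14739 gene symbols 18.3% reached that level in this comparison (9.99% higher), so 2 of 8 is close to the background. No member had an adjusted p under 0.05 (0.0746% of all symbols had). The same 2 members were under an adjusted p of 0.30, as were 22.5% of all symbols. The median difference of the 8 members was 0.81 on the log2 scale, against 0.06 over all symbols.

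Bdnf, the ligand of TrkB, was at 6.98, 3.08 and 3.79 CPM in WT saline libraries 1, 3 and 13, and at 19.1, 18.1 and 1.93 CPM in WT ethanol libraries 4, 5 and 14. WT ethanol 4 and 5 were above every saline library, but WT ethanol 14, the library with the highest striatal marker sum, was the lowest of the 6, so the groups overlapped. The part of the dissected tissue in these values was not tested. The means were 4.62 ± 2.08 and 13.0 ± 9.62 CPM (SD, n = 3), and the fit gave a 2.79-fold higher level with ethanol (log2 1.48, SE 0.68, edgeR quasi-likelihood test, unadjusted p = 0.0457, Benjamini-Hochberg adjusted p = 0.263). On the authors' RPKM the difference was 0.08 on the log2(RPKM + 1) scale (limma, unadjusted p = 0.873), and without WT ethanol 4 it was 1.08 (edgeR, unadjusted p = 0.160). At low counts the Bdnf RPKM did not follow the CPM. It was 2.58 in WT saline 3 (6 counts) and 2.34 in WT saline 1 (38 counts), the reverse of their CPM order. In bulk tissue, fewer cells that make a transcript and less of it in each cell cannot be told apart.

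Ntf3, which encodes NT-3, was at 8.27, 1.03 and 1.93 CPM with saline and 13.2, 7.50 and 2.28 CPM with ethanol in WT mice. The groups overlapped and the difference was 1.00 (log2, SE 0.86, edgeR, adjusted p = 0.538).

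Shc3, the neuronal Shc adaptor that links activated Trk receptors to Grb2 and Ras, was at 1.10, 3.09 and 3.79 CPM in WT saline libraries and at 12.5, 12.2 and 8.78 CPM in WT ethanol libraries. Every ethanol library was above every saline library, as was so for 11.2% of all symbols, and 19.5% did not overlap in either direction. The means were 2.66 ± 1.39 and 11.2 ± 2.06 CPM, a 4.16-fold higher level with ethanol (log2 2.06, SE 0.52, edgeR, unadjusted p = 0.00146, adjusted p = 0.15). The saline counts were 6, 6 and 51 reads, so the low level rested on few reads in WT saline 1 and 3. Cortical excitatory neuron markers summed to 1208 to 1447 CPM in WT saline and 849 to 1313 CPM in WT ethanol libraries, and inhibitory neuron markers (8 of 8 in the files) to 366 to 611 CPM and 581 to 717 CPM. The part of cell composition in the Shc3 difference was not tested.

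Among the receptors, Ntrk2 was at 269, 346 and 421 CPM with saline and 688, 317 and 364 CPM with ethanol in WT mice. Only WT ethanol 4 was outside the range of the saline libraries. This library had the highest sums of the thalamic and hippocampal lists, and the part of other tissue in the value was not tested. The difference was 0.40 (log2, SE 0.39, edgeR, adjusted p = 0.587). Ntrk3 was at 17.5, 45.8 and 37.2 CPM against 61.8, 32.1 and 59.0 CPM, with overlapping groups and a difference of 0.61 (SE 0.57, adjusted p = 0.572). Ngfr, Sort1 and Frs2 differed by 1.14 (SE 0.78), 0.15 (SE 0.34) and 0.09 (SE 0.42), and their groups overlapped too. Ngfr, with 2 to 122 counts a library, was too shallow for a firm value.

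Ethanol against saline in KO mice asks the same without p53. Of the 8 members, 7 had differences below 0 and 1 above, and none reached an unadjusted p under 0.05 in edgeR (DESeq2 called 1), against 3.15% of all symbols. Of the 16 member transcripts 0 were called in edgeR, against 2.99% of all transcripts (DESeq2 called 1, and no alternative more than 2). The median difference was -0.36, against 0.01 over all symbols.

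In KO mice Bdnf was at 6.20, 9.78 and 13.9 CPM with saline (libraries 7, 8 and 9) and at 7.89, 3.34 and 5.65 CPM with ethanol (10, 12 and 18), a difference of -0.70 (log2, SE 0.67, edgeR, adjusted p = 0.999). The groups overlapped. Ntf3 was at 2.95, 19.6 and 15.2 CPM with saline and 3.63, 0 and 4.82 CPM with ethanol, a difference of -1.81 (SE 0.88, unadjusted p = 0.0576, adjusted p = 0.999). KO saline 8 and 9 were high, and KO saline 7 was within the ethanol range. Shc3 was at 10.0, 17.9 and 22.2 CPM with saline and 7.26, 13.4 and 6.79 CPM with ethanol, a difference of -0.99 (SE 0.51, unadjusted p = 0.0706, adjusted p = 0.999). The value of 13.4 CPM is that of KO ethanol 12 and rested on 8 counts (exact Poisson interval 5.77 to 26.3 CPM).

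Ntrk2 was at 348, 379 and 444 CPM with saline and 324, 231 and 336 CPM with ethanol in KO mice. The groups did not overlap, as was so for 10.8% of all symbols, but the difference of -0.39 (SE 0.39, edgeR, adjusted p = 0.999) was of the size of its standard error. Ntrk3 was at 85.0, 45.6 and 48.2 CPM with saline and 92.3, 13.4 and 108 CPM with ethanol, so KO ethanol 10 and 18 were the highest of the 6 and KO ethanol 12, on 8 counts, the lowest. Its difference was 0.31 (SE 0.57). Sort1, which sorts neurotrophin precursors, and Frs2, the docking protein of the MAP kinase branch, differed by -0.13 (SE 0.34) and -0.32 (SE 0.42).

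KO against WT under saline asks for differences that were there before ethanol. It shares the 3 WT saline libraries with the ethanol comparison in WT mice, so the values of both are set side by side and do not support each other. Here 7 of 8 members were above 0, and Shc3 was the 1 of 8 with an unadjusted p under 0.05, against a background of 19.6% (9.14% higher). Shc3 and Ntf3 were under an adjusted p of 0.30, against 25.8% of all symbols, and no member was under 0.05 (0.0543% of all symbols were). The median difference was 0.74, against 0.04 over all symbols.

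Shc3 was 6.21-fold higher in KO saline (16.7 ± 6.16 CPM) than in WT saline libraries (2.66 ± 1.39 CPM), with a log2 difference of 2.63 (SE 0.53, edgeR, unadjusted p = 0.000191, adjusted p = 0.128). The groups did not overlap, like 22.9% of all symbols. The WT saline libraries were in fact below all other 9 libraries for Shc3, a pattern that 2.33% of the symbols tested shared (343 of 14739). Leaving out WT saline 1, which had the lowest TMM factor (0.564) and the highest meningeal marker sum, gave 2.23 (unadjusted p = 0.000929, adjusted p = 0.316).

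Ntf3 was at 12.6 ± 8.61 CPM in KO saline and 3.74 ± 3.95 CPM in WT saline libraries (log2 difference 1.69, SE 0.86, edgeR, unadjusted p = 0.0700, adjusted p = 0.287), with KO saline 7 inside the WT range. Bdnf was at 9.95 ± 3.84 against 4.62 ± 2.08 CPM, a difference of 1.08 (SE 0.67, adjusted p = 0.380), and the groups overlapped through 1 library on each side. Ntrk3 had a difference of 0.84 (SE 0.57), Ngfr of 0.64, Sort1 of 0.38 (SE 0.34), Ntrk2 of 0.18 (SE 0.39) and Frs2 of -0.09 (SE 0.42). Side by side with the ethanol effect in WT mice, the differences from WT saline were 2.06 and 2.63 for Shc3, 1.48 and 1.08 for Bdnf, and 1.00 and 1.69 for Ntf3, with ethanol given first and genotype next.

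KO against WT under ethanol showed no member at an unadjusted p under 0.05 in edgeR or in DESeq2, against 3.24% of all symbols, and 6 of 8 were below 0 (median -0.56, against -0.03). The groups overlapped for every member, while 12.7% of all symbols did not overlap. Bdnf, Ntf3 and Ntrk2 differed by -1.11 (SE 0.68), -1.12 (SE 0.87) and -0.62 (SE 0.39). Shc3, at 11.2 ± 2.06 and 9.14 ± 3.67 CPM, differed by -0.42 (SE 0.51, edgeR, adjusted p = 0.982). Ntrk3 was higher by 0.53 (SE 0.57), and without the shallow KO ethanol 12 by 0.98 (edgeR, unadjusted p = 0.0492, adjusted p = 0.955). Bdnf without WT ethanol 14 differed by -1.55 (edgeR, unadjusted p = 0.0114, adjusted p = 0.893).

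The interaction asks whether the ethanol effect differed between genotypes. It was below 0 for 8 of 8 members, which means a lower ethanol effect in KO than in WT mice, with a median of -1.09 against -0.11 over all symbols. Shc3 (-3.05, SE 0.73, edgeR, unadjusted p = 0.000873, adjusted p = 0.250), Ntf3 (-2.81, SE 1.22, unadjusted p = 0.0373, adjusted p = 0.306) and Bdnf (-2.18, SE 0.96, unadjusted p = 0.0379, adjusted p = 0.308) were the 3 of 8 under an unadjusted p of 0.05, against 15.2% of all symbols (7.67% lower). No adjusted p was under 0.05. Bdnf and Ntf3 lost the call without WT ethanol 4, at -1.75 (edgeR, unadjusted p = 0.0978) and -2.10 (unadjusted p = 0.112), and without other single libraries, while Shc3 kept it without any 1 of the 12.

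**Figure D3:**
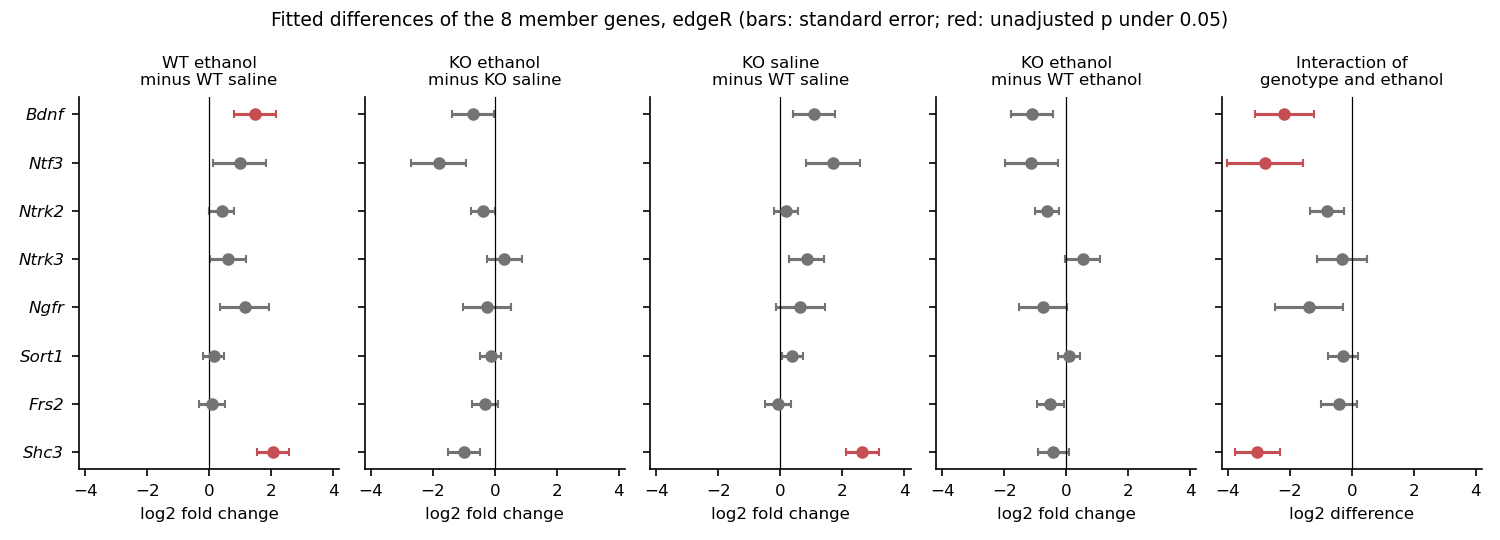
Log2 differences of the 8 members in the 5 contrasts (points) with their standard errors (bars), and red where the unadjusted edgeR p was under 0.05. Shc3 is at 2.06 for ethanol in WT mice, 2.63 for KO against WT under saline and -3.05 for the interaction, and the 5 panels share groups of libraries.

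The receptor forms printed above were counted separately. Truncated TrkB (NM_008745) took 23.8%, 13.0% and 37.4% of the Ntrk2 count in WT saline libraries 1, 3 and 13 and 67.1%, 27.3% and 20.2% in WT ethanol libraries 4, 5 and 14. In KO mice it took 15.1%, 24.5% and 37.1% with saline and 26.3%, 11.4% and 25.5% with ethanol. These are shares of reads, which longer messages raise, and not of molecules. Only in WT ethanol 4 was the truncated form most of the count, at 8149 of 12149 reads (95% Wilson interval 66.2 to 67.9%).

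Group means of the truncated share were 24.7 ± 12.3%, 38.2 ± 25.3%, 25.5 ± 11% and 21.1 ± 8.38% (SD, n = 3) in WT saline, WT ethanol, KO saline and KO ethanol libraries. None of the differences was larger than the spread between libraries, at 13.5 points for ethanol in WT mice (exact permutation test, two-sided, p = 0.6), -4.48 points for ethanol in KO mice (p = 0.6), 0.808 points for KO against WT under saline (p = 0.8) and -17.1 points under ethanol (p = 0.4). With 3 libraries against 3 the smallest p this test allows is 0.1. The 3 libraries with the largest truncated share, WT ethanol 4, WT saline 13 and KO saline 9, had astrocyte marker sums (7 of 7 markers in the files) of 2765, 2013 and 2479 CPM, within a range of 950 to 2765 CPM over all 12. WT ethanol 5 (2032 CPM) and KO saline 8 (2031 CPM) were above WT saline 13 with smaller shares. Choroid plexus marker sums of the same 3 libraries were 5064, 127 and 2267 CPM, and KO ethanol 18, with a smaller share, had 2222 CPM. The part of either tissue in the share was not tested.

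As a level, truncated TrkB was lower in KO ethanol than in WT ethanol libraries, at 85.1, 25.7 and 85.0 against 459, 85.9 and 73.9 CPM (log2 -1.63, SE 0.75, edgeR over transcripts, unadjusted p = 0.0469, adjusted p = 0.999). WT ethanol 5 and 14 were close to KO ethanol 10 and 18, and without WT ethanol 4 the difference was -0.25 (edgeR, unadjusted p = 0.704). The kinase-bearing forms were steadier, with NM_001025074 at 90.9 to 169 CPM and NM_001282961 at 75.1 to 163 CPM over the 12 libraries. In WT saline 1 and 3, WT ethanol 14 and KO ethanol 12, NM_001282961 had 610, 319, 902 and 66.8 estimated counts. NM_001025074 had 507, 265, 750 and 55.5 there, in nearly 1 proportion, so whether these 2 were measured apart in those libraries is unsure. In KO against WT mice under ethanol 1 of 16 member transcripts was called, against 3.29% of all transcripts.

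Truncated TrkC (NM_182809) took most of the Ntrk3 count in every library, and the full-length form (NM_008746) at most 12.6%. Its share was 9.66%, 2.42% and 3.35% with saline and 6.72%, 7.86% and 12.6% with ethanol in WT mice, and 4.03%, 9.39% and 6.53% with saline and 4.76%, 0% and 4.63% with ethanol in KO mice. The 0% is 0 of 8 reads in KO ethanol 12, with a 95% Wilson interval that reaches 32.4%. The group means differed by 3.92 points for ethanol in WT mice (exact permutation test, p = 0.3) and by -5.94 points for KO against WT under ethanol (p = 0.1, the smallest possible).

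As a level, full-length TrkC was at 1.73, 1.10 and 1.29 CPM in WT saline and 4.13, 2.5 and 7.49 CPM in WT ethanol libraries, without overlap (log2 1.75, SE 0.75, edgeR over transcripts, unadjusted p = 0.0350, adjusted p = 0.244). The WT saline values rested on 9.18, 2.15 and 16.8 estimated counts, and the call was lost in 8 of 22 alternatives (log2 0.49 to 2.33). The share of all transcripts without overlap was not taken, and 19.5% of the gene sums did not overlap in this comparison. The truncated form differed by 0.51 (SE 0.60) in the same comparison. The difference between the forms was not tested as such beyond the shares above. In this contrast 2 of 16 member transcripts were called, NM_008746 and Shc3 NM_009167, against 18.2% of all transcripts.

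**Figure D4:**
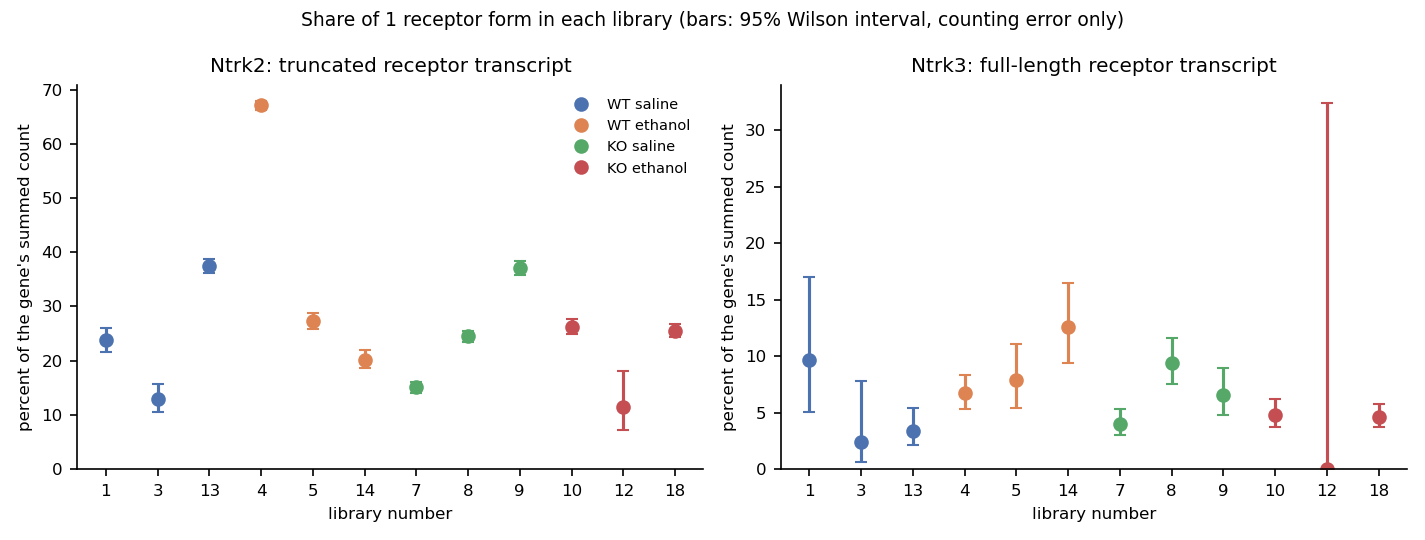
Share of the gene's summed count (percent) assigned to truncated TrkB of Ntrk2 and to full-length TrkC of Ntrk3 in each library, with 95% Wilson intervals that cover counting error only. Truncated TrkB reaches 67.1% in WT ethanol 4 and lies between 11.4% and 37.4% in the other 11 libraries, and the interval of full-length TrkC in KO ethanol 12 reaches 32.4%.

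The 2 Sort1 messages, which differ inside the coding sequence, were of like abundance, and NM_001271599 took 33.1% to 62.0% of the Sort1 count. Its share was 33.1% in both libraries whose names open with L, and 45.8% to 62.0% in the other 10. The L libraries also had the lowest totals, at 1953154 estimated counts in WT saline 3 and 719735 in KO ethanol 12. Their Sort1 counts were 319 and 89.0, and so equal a split leaves it unsure whether the 2 messages were measured apart there.

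Bdnf is read from several promoters, each with its own first exon joined to 1 shared coding exon, so reads of that exon fit every transcript. Of the count summed over the 12 libraries, NM_001048141 took 24.1%, NM_001048142 21.1%, NM_001285420 16.1% and NM_007540, which starts farthest upstream, 15.5%. This order did not hold library by library, since NM_001048141 ran from 0.719% to 81.9% and NM_001285420, at 1.21% to 53.2%, exceeded it in 7 of 12 libraries. In 4 libraries (WT saline 1 and 3, WT ethanol 14 and KO ethanol 12) the split over all 12 transcripts was the same to 0.01 points, with NM_001285420 at 53.2%, so the transcripts were not measured apart in these. These 4 are among the 7 libraries just counted, and the order of the transcripts in them was not measured. NM_001285419, NM_001285417, NM_001316310 and NM_001285421 kept fixed ratios of 0.236, 0.183, 0.0715 and 0.0800 to NM_001285420 in all 12 libraries (coefficient of variation at most 0.00138%), so these 5 were not measured apart from each other. Of the 12 transcripts 3 passed the filter.

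NM_007540 had 72.1 and 79.7 estimated counts in WT ethanol 4 and 5, the libraries with the highest Bdnf sum, and at most 9.01 in the other 10. NM_001048142 had 0.70, 0.110 and 0.413 counts in WT saline libraries, 0.148, 42.0 and 80.0 in KO saline libraries, 16.9, 20.4 and 0.203 in WT ethanol libraries and 60.7, 0.0368 and 39.4 in KO ethanol libraries. It was called between KO saline and WT saline (edgeR, unadjusted p = 0.0149, adjusted p = 0.181), but WT saline 1 and 3 are among the libraries whose split was not measured, KO saline 7 was as low as the WT libraries, and no fold is given against a group that sums to 1.22 counts. For Ntf3, NM_008742 was called in the same comparison (log2 2.77, SE 1.27, edgeR, unadjusted p = 0.0460, adjusted p = 0.256) at 0.809, 6.35 and 3.09 against 1.05, 0.730 and 0.0364 CPM, with overlapping groups. With Shc3 NM_009167 that made 3 of 16 member transcripts, against 19.1% of all transcripts. In the interaction 2 of 16 were called, Shc3 NM_009167 (-3.00, SE 0.78) and Ntf3 NM_001164035 (-3.22, SE 1.46, edgeR, unadjusted p = 0.0447, adjusted p = 0.318), against 15.3%.

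The start of NM_001048141 is printed because this transcript had the largest Bdnf count summed over the libraries, with the limits just given. It lies at chr2:109692186-109692485 (GRCm38, plus strand, RefSeq), from 250 bases before the start to 50 after it, and the capitals mark a half-site of the cyclic AMP response element (TGACG, here on the minus strand).
Bdnf start of NM_001048141: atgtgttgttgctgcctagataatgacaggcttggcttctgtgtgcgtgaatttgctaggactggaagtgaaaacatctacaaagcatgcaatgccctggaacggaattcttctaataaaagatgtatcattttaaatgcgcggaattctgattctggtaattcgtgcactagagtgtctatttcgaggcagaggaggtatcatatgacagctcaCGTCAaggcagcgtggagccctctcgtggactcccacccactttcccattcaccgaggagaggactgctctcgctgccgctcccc
This half-site, searched on both strands, was in 1 of the 12 promoters held for 5 members (7 of Bdnf, 2 of Ntf3 and 1 each of Frs2, Ngfr and Ntrk2) and in 20.8% of 32851 promoters of this length. A p53 half-site was in 1 of the 12, at another Bdnf start, against 8.36% of all promoters, and the element of adjoining p53 half-sites was in 0 of 12, against 0.0731%. A match is only a description of the sequence.

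The rest of the pathway was followed in 8 lists of 121 genes outside the members, of which 117 were tested. At an unadjusted p under 0.05, 15 were higher and 1 lower with ethanol in WT mice (13.7% called), 2 and 6 with ethanol in KO mice (6.84%), 16 and 5 in KO against WT mice under saline (17.9%), and 1 and 4 in KO against WT mice under ethanol (4.27%). In the interaction 3 were higher and 18 lower (17.9%). The share of all symbols called was 18.3%, 3.15%, 19.6%, 3.24% and 15.2% in the same order. The lists were thus called less often than all symbols in both comparisons with WT saline, where most calls had the direction of Shc3. In the remaining contrasts their share was above that of all symbols, a difference that was not tested.

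The list of Trk receptors, the sortilin family and receptor partners had 3 of 8 genes higher in both comparisons with WT saline, namely Sorcs3 and Sorl1, of the sortilin family, and Kidins220, a scaffold of Trk receptors, and the same 3 were lower in the interaction. Of all symbols, 9.99% were higher with ethanol in WT mice, 9.14% were higher in KO saline, and 7.67% were lower in the interaction. This list had the largest share called of the 8 lists. The 3 contrasts share the WT saline libraries, so they do not support each other. Sorl1 was at 5.88, 7.20 and 15.4 CPM in WT saline and 25.7, 41.4 and 48.4 CPM in KO saline libraries (log2 1.98, SE 0.44, edgeR, unadjusted p = 0.000427, adjusted p = 0.134). It was at 25.6, 16.3 and 22.1 CPM in WT ethanol libraries. The WT saline group lay below the KO saline and the WT ethanol group, as was so for 12.9% and 11.2% of all symbols.

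Among adaptors and effectors, Irs2, a docking protein that leads to PI3 kinase, was at 0.919, 1.03 and 4.23 CPM in WT saline and 36.1, 9.45 and 8.08 CPM in WT ethanol libraries (log2 2.95, SE 0.71, edgeR, unadjusted p = 0.000972, adjusted p = 0.130). In KO mice it was at 8.04, 11 and 19 CPM with saline and 8.53, 5.01 and 10.1 CPM with ethanol. Like Shc3, it was lowest in the 3 WT saline libraries. Pik3r3, a regulatory subunit of PI3 kinase, was at 31.1, 28.8 and 46.6 CPM in WT saline and 101, 92.9 and 89.6 CPM in WT ethanol libraries (log2 1.41, SE 0.34, adjusted p = 0.130), and at 42.4, 84.6 and 63.7 against 50.2, 38.4 and 52.3 CPM in KO mice, with an interaction of -1.83 (SE 0.48, adjusted p = 0.250).

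Cbl, the ubiquitin ligase that ends receptor kinase signals, was 1.80 (SE 0.50) higher with ethanol in WT mice and 1.83 (SE 0.50) higher in KO than in WT mice under saline (edgeR, adjusted p = 0.172 and 0.176), at 3.49, 2.06 and 5.72 CPM in WT saline, 21.2, 9.54 and 10.5 CPM in WT ethanol and 8.56, 15.4 and 18.5 CPM in KO saline libraries. The branch of p75NTR had 0 genes higher and 1 lower of 23 tested with ethanol in WT mice (Rac1, -0.83, SE 0.36). Of all symbols, 9.99% were higher and 8.36% lower in that comparison. In KO against WT mice under saline the branch had 1 higher and 2 lower of 23, against 9.14% and 10.5% of all symbols.

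With ethanol in KO mice the smallest p-values of the lists included those of Creb1, the transcription factor that TrkB signals reach (-1.37, SE 0.42, unadjusted p = 0.00554) and Spred2, an inhibitor of Raf (-1.21, SE 0.49), both with an adjusted p of 0.999 in edgeR. Creb1 was at 36.4, 115 and 77.6 CPM with saline and 32.8, 20.1 and 33.7 CPM with ethanol, so KO saline 8 and 9 stood high, as they did for Ntf3. Under ethanol Pik3r3, the precursor-cutting enzyme Pcsk1 and the adaptor Gab2 were lower in KO than in WT mice, by -0.99 (SE 0.34), -1.56 (SE 0.67) and -0.78 (SE 0.35), each with an adjusted p of 0.982.

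**Figure D5:**
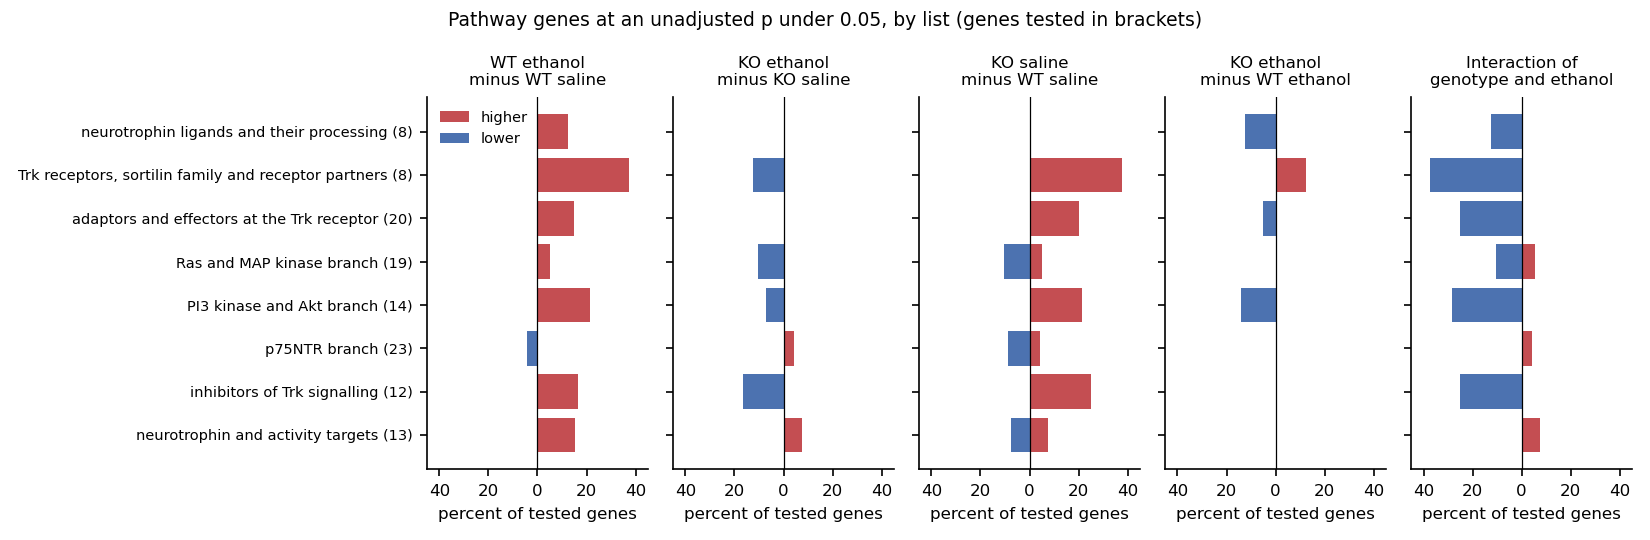
Percent of tested genes at an unadjusted p under 0.05 in 8 pathway lists, higher to the right (red) and lower to the left (blue), in the 5 contrasts, with the number tested in brackets. The list of receptors and sortilin relatives has 3 of 8 higher in both comparisons with WT saline and 3 of 8 lower in the interaction, and these panels share the WT saline libraries.

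Over the 12 libraries the symbols most like Bdnf in log2(CPM + 1) were Hrk, 4932411E22Rik and Epha5 (Pearson r 0.894, 0.893 and 0.892), and Ntf3 was 55th with 0.792. Among those most like Ntrk2 were Il6st and Cpm (r 0.956 and 0.934), and those most like Ntrk3 were Taf8, Zfyve27 and Top3b (r 0.988, 0.987 and 0.985). These are descriptions over libraries that share depth and dissection, with no test.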

How the data were processed

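Somatosensory cortex RNA was sequenced as stranded single reads of 75 bases. Per the study's methods, the authors filtered reads at a quality score of 30, mapped them with Bowtie2 in TopHat on mm10 and counted RefSeq transcripts with Partek Flow (versions not given in the sources used here). The deposited estimated counts, 1 value per transcript and library, are not scaled, and 54.5% to 56.8% of the values above 0 are not whole because reads were divided between transcripts. The authors' RPKM values, also deposited, coincide within 0.1% at 99.8% of 20504 ranks across libraries, so they were made alike in distribution before deposit. Neither was pooled.

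Groups came from the sample labels. Counts were summed per gene symbol, rounded, filtered (filterByExpr), scaled with TMM and fitted in edgeR 4.0.16 (R 4.3.3, quasi-likelihood, 1 mean per group over all 12 libraries, two-sided, Benjamini-Hochberg over all features tested), with 14739 symbols and 21715 transcripts tested. A call is an unadjusted p under 0.05, and adjusted levels of 0.05 and of 0.30, the study's level, stand beside it. Adjusted p-values in the report are from these edgeR fits unless limma is named. Shares of a gene's count were compared by exact permutation. Tables and plots were made in Python 3.11.15 with pandas 2.3.3, matplotlib 3.10.9, SciPy 1.17.1 and numpy 2.4.6. The alternatives were DESeq2 1.42.0, limma 3.58.1 on log2(RPKM + 1) and log2(RPKM + 0.1), other scaling and filters, the first letter of the library name, the compared groups alone, transcripts, and each library left out. The scripts were tested on simulated data.

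All 8 members were named, with the 3 pathway genes of smallest p in each contrast and the 3 symbols most like Bdnf, Ntrk2 and Ntrk3. Some of these are not reported here. Sorcs3, Kidins220 and Rac1 were named after their values were seen. The members and lists were chosen with earlier results of these data known. Sequences came from GENCODE and RefSeq tables of GRCm38.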

Additional observations from a re-analysis of the deposited data

Results flagged for a closer look

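For 3 members the difference in ethanol effect between WT and KO mice, tested as the interaction in edgeR, reached an unadjusted p under 0.05. None reached an adjusted p under 0.05. The log2 ethanol effect in KO minus that in WT mice in edgeR was -3.05 for Shc3 (unadjusted p = 0.000873), -2.81 for Ntf3 (unadjusted p = 0.0373) and -2.18 for Bdnf (unadjusted p = 0.0379). The adjusted p-values in edgeR were 0.250, 0.306 and 0.308, and 15.2% of all symbols reached the same unadjusted level. The difference for Shc3 held WT saline at 2.66 ± 1.39 CPM against means of 9.14 to 16.7 CPM in the other groups. For Ntf3 the largest group mean was that of KO saline (12.6 ± 8.61 CPM), and for Bdnf that of WT ethanol (13.0 ± 9.62 CPM). WT ethanol 4 had the highest sums of the thalamic and hippocampal lists. Without WT ethanol 4 the values in edgeR were -2.92 for Shc3 (unadjusted p = 0.0021), -2.10 for Ntf3 (unadjusted p = 0.112) and -1.75 for Bdnf (unadjusted p = 0.0978). Ntf3 and Bdnf lost the call without other single libraries too.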

How the results depend on the processing

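No paired analysis was possible because the 4 groups share no replicate number. Shc3 kept its direction and an unadjusted p under 0.05 in all alternatives that tested it, 22 of 22 for ethanol in WT mice (log2 1.39 to 2.57, adjusted p 0.00834 to 0.382), 22 of 22 for KO against WT under saline (1.86 to 3.15, adjusted p 0.000300 to 0.417) and 21 of 21 for the interaction (-3.57 to -2.14, adjusted p 0.00964 to 0.506), the lowest adjusted p being that of DESeq2 each time. Bdnf lost its call in 16 of 22 alternatives for ethanol in WT mice (0.02 to 2.03) and in 14 of 21 for the interaction (-2.67 to -0.04), and Ntf3 in 12 of 21 for the interaction (-4.00 to -1.55). The alternatives on RPKM carry the limit of Bdnf RPKM at low counts given above. Library size without TMM moved the median of all symbols from 0.06 to 0.49 for ethanol in WT mice, from 0.04 to 0.49 for KO against WT under saline and from -0.11 to -0.52 for the interaction, and the share of calls that were higher from 54.4%, 46.6% and 49.4% to 89.4%, 84.3% and 19.2%. Under it Shc3 was at 2.44, 3.02 and -3.43. Removing a trend with length and GC moved the medians to -0.16, -0.16 and 0.26 and the shares to 39.8%, 36.4% and 68.5%. For ethanol in KO mice and for KO against WT under ethanol the shares went from 36.3% and 30.2% to 66.8% and 55.7%.

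The number of members called was 2 for ethanol in WT mice. It was 0 with at least 10 counts in every library, a filter that left 2 members (Ntrk2 and Sort1), and 1 in limma with either pseudocount, with the first letter of the library name as covariate, without the 2 libraries named with L, with the compared groups alone, and without the L libraries and WT ethanol 4. For ethanol in KO mice it was 0, and 1 in DESeq2, with at least 1 count in any library, in limma with either pseudocount, with the first letter, without the L libraries, and without these and WT ethanol 4, and 2 with the compared groups alone or after the length and GC trend. For KO against WT under saline it was 1, and 3 with library size, after the length and GC trend or over transcripts, 2 with at least 1 count, without the L libraries, and without these and WT ethanol 4, and 0 with at least 10 counts. Under ethanol it was 0, and 1 without the L libraries, without these and WT ethanol 4, and over transcripts. For the interaction it was 3, and 0 with at least 10 counts and 1 in limma with a pseudocount of 0.1, with the first letter, without the L libraries, and without these and WT ethanol 4. Leaving out each library gave 1 to 3, 0 to 2, 1 to 2, 0 to 1 and 1 to 3. The share of all symbols called moved too. In the same order it was 37.3%, 4.03%, 39.2%, 6.35% and 21.4% without the L libraries. It was 32.0%, 4.78%, 41.9%, 5.78% and 19.4% without these and WT ethanol 4. With the first letter it was 17.8%, 1.55%, 19.8%, 2.19% and 10.3%. In limma with a pseudocount of 0.1 it was 11.1%, 3.75%, 11.5%, 4.63% and 11.2%. The member counts are to be read against these shares. Ntf3 was called for ethanol in KO mice in 10 alternatives (-2.85 to -1.70) and Shc3 in 8 (-1.38 to -1.01). Truncated TrkB turned from -1.63 to 0.10 (edgeR, unadjusted p = 0.860) between KO and WT mice under ethanol without the L libraries and WT ethanol 4. The 64 alternative values of the differences in shares each moved by less than 1 SD, which says nothing of their significance, since 3 libraries against 3 cannot pass the threshold. The causes were not tested. Removal of WT ethanol 4 with the L libraries, and of the length and GC trend, was chosen after seeing the data. The depth of KO ethanol 12 limits the KO ethanol values, with 0 counts for Ntf3 and Ngfr and 2 for Bdnf.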
